A study of Mus musculus with 9 samples.

Results

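A set of 8 genes tied to repair of the injured gut epithelium were followed across the libraries of a mouse colitis study. They are Areg, Ereg and Hbegf, which encode ligands of the epidermal growth factor (EGF) receptor family, Ly6a and Ly6d, which encode small surface proteins held by a lipid anchor, and Clu, Anxa1 and Msln. The members were chosen by name. Each matched 1 row among the 55468 genes of the expression table, so all 8 were measured in every library.

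The tissue was the intestinal tract of mice, and the study asked how diets that lack methionine, tryptophan and niacin act on the gut in a mouse model of bowel inflammation. In that model, dextran sulfate sodium (DSS), a polymer that damages the lining of the gut, is put in the drinking water. DSS was available from day 18 in 8 of the 9 conditions. On day 28 tissue came from mice on the normal diet (R), without methionine (1K), without tryptophan and niacin (2K) and without all 3 nutrients (3K). On day 33 it came from mice on the normal diet throughout (RR) and from mice given the normal diet again from day 28 after each deficient diet (1KR, 2KR and 3KR, in the same order). The last library (C) had no DSS and the normal diet, and was collected on day 34. Each condition has 1 library, and the labels name neither strain, sex and age nor the segment of gut. They do not say either whether a library came from 1 animal.

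When the intestinal epithelium is injured, surviving cells pass through a state that resembles the fetal gut before stem cells of the crypt base return. The state is marked by Ly6a (Sca-1), Clu and Anxa1, and is known to depend on YAP, a transcriptional coactivator that works with TEAD factors and is held back by the Hippo kinases. Areg, Ereg and Hbegf are made as membrane proteins, cut free by sheddases such as Adam17, and bind the EGF receptor, which drives growth and restitution of the epithelium.

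Levels are in FPKM, that is, fragments per kilobase of transcript relative to the size of the library. The estimated depth was 14.1 M fragments (3KR) to 30.9 M (2KR), and 15908 to 17256 genes reached 1 FPKM. All 9 pan-epithelial markers, such as Epcam and Vil1, reached 1 FPKM in every library, and their summed level was 2099 FPKM in 2K and 2527 in 3K, against 3431 to 4857 in the other libraries. Several libraries stand apart. As a share of the summed FPKM, pancreatic acinar markers made up 4.95% of 2K, 7.2% of 3K and at most 0.00332% of any other library. Hepatocyte markers took 5.59% in 2K and at most 0.0775% elsewhere, and gastric markers 2.36% in 2K and at most 0.00892% elsewhere. In 3KR the neutrophil markers summed to 2557 FPKM, against 3.7 to 229 elsewhere, and the colonic carbonic anhydrase Car1 was at 1151 FPKM, against at most 2.56. Ileal markers summed to 4222 FPKM in C and 2738 in R and to 122 to 1199 in the rest, while duodenal and jejunal markers summed to 170 to 260 FPKM in C, R and 3KR and to 953 to 3581 in the rest. Gut region, organ and diet cannot be told apart in these comparisons, and in bulk tissue fewer cells of a type and less RNA per cell cannot be told apart either.

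The repair genes were highest in the 2 libraries from mice without tryptophan and niacin at day 28, or in the library refed after all 3 nutrients were removed. Differences are given as log2(FPKM + 0.5), and a gene was counted when at least 2-fold apart on that scale with 1 FPKM or more in either library. In 2K, 7 of the 8 genes exceeded R by at least 2-fold and 0 were lower. The share of all genes that high was 14.7%, and the share that low 14.1%. In 3K 7 of 8 were higher and 0 lower, with 11.6% of all genes higher and 13.4% lower. The exception was Ly6a in 2K and Msln in 3K. The median difference over the 8 genes was 1.56 in 2K and 1.53 in 3K, against 0.02 and 0.0 over all genes. Methionine deficiency alone gave no common direction: Areg and Ly6d were higher and Anxa1 and Msln lower in 1K than in R, with 7.17% of all genes higher and 8.63% lower. These comparisons share the library R, and with 1 library a condition none carries a test.

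**Figure D1:**
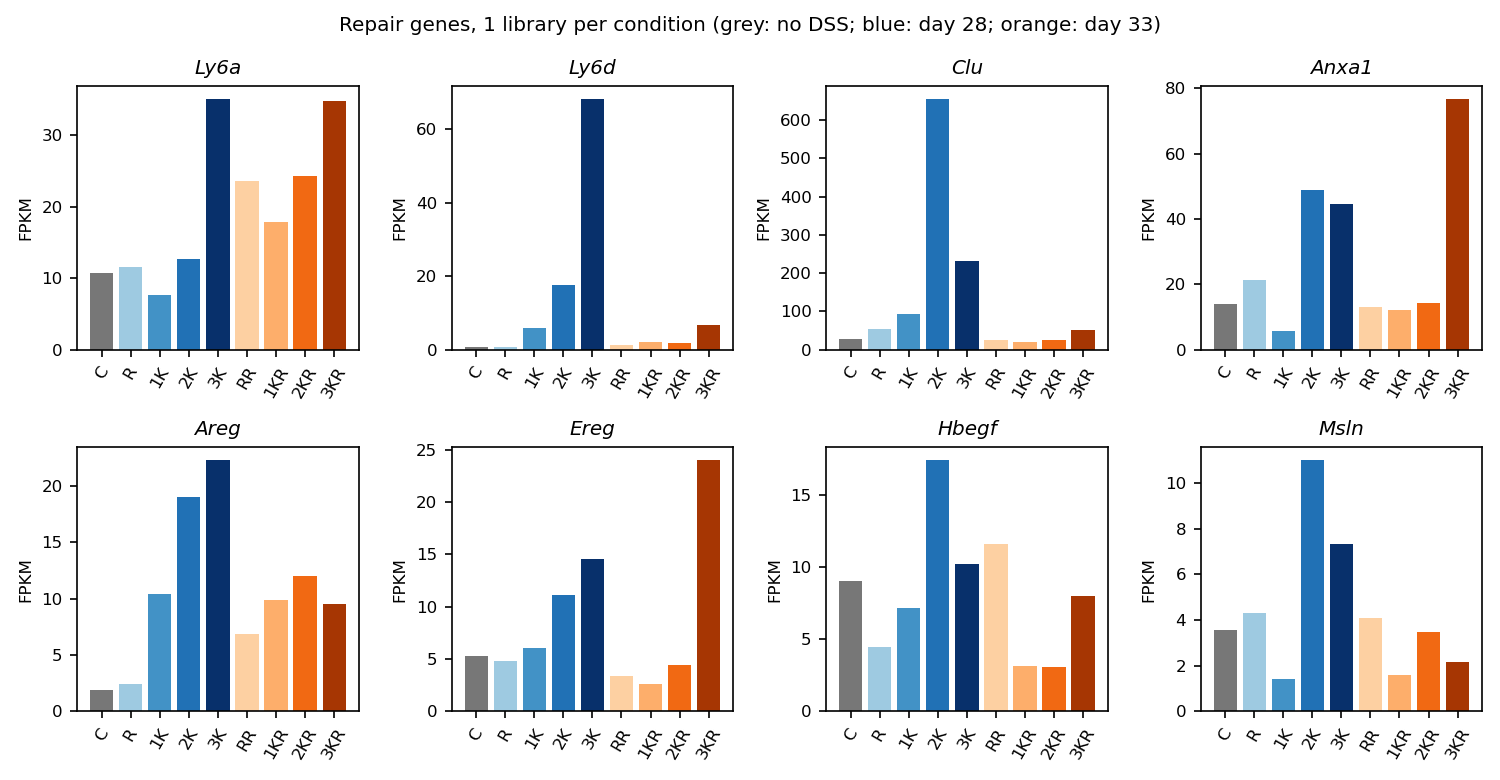
FPKM of the 8 repair genes in each of the 9 libraries, 1 bar per library, with a separate linear axis from 0 for each gene. Ly6d reached 68.3 FPKM in 3K and Clu 656 FPKM in 2K, while Anxa1 and Ereg were highest in 3KR, at 76.9 and 24.0 FPKM.

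Amphiregulin (Areg) was higher in every deficient library than on the normal diet at day 28. It lies on chromosome 5 at 91139599 to 91148432, plus strand (GRCm38, GENCODE M21; ENSMUSG00000029378). Its level was 2.37 FPKM in R, 10.4 in 1K, 19.0 in 2K and 22.3 in 3K. At day 33 it was 6.87 FPKM in RR, 9.89 in 1KR, 12 in 2KR and 9.52 in 3KR, and it was 1.87 in C. C and R were thus the 2 lowest libraries, and all 3 deficient day 28 libraries stood above R by 1.93 (1K), 2.76 (2K) and 2.99 (3K) on the log2 scale. The estimated number of fragments behind these levels ran from 59.4 (C) to 714 (3K).

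The 250 bases before the start of Areg are shown because the gene was higher in all 3 deficient diets, and because their letters include a cyclic AMP response element and a TATA box. RefSeq's promoter table (GRCm38.p6) held 2 of the 8 members, Areg and Anxa1. The sequence is chr5:91139349-91139598, plus strand, 5′ to 3′, with both elements in capitals.
Areg: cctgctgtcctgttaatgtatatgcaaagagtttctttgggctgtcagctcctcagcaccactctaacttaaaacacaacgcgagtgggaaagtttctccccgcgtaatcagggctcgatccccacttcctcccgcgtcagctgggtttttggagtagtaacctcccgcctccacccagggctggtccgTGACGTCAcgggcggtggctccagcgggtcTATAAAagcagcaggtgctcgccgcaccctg
The element TGACGTCA, which reads the same on both strands, lies at -61 to -54 from the start, and TATAAA at -31 to -26. Of 32851 promoters of that length searched on both strands, 1.55% held TGACGTCA and 12.4% held TATAAA. The AP-1 motif TGANTCA, held by 6.75%, and the TEAD motif CATTCC, held by 12.6%, had no match in the Areg window. No 2 motifs overlapped. TGACGTCA was added to the search after the sequence had been seen, and a match describes letters, not a bound site.

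Epiregulin (Ereg) is the neighbour of Areg, at 91074622 to 91093646 of the same chromosome and strand (ENSMUSG00000029377), 46.0 kb away. Its level was 4.83 FPKM in R, 6.0 in 1K, 11.1 in 2K and 14.5 in 3K. On day 33 the level was 3.34 in RR, 2.57 in 1KR, 4.37 in 2KR and 24.0 in 3KR, and it was 5.29 in C. The refed library 3KR was thus the highest for Ereg, 2.67 above RR on the log2 scale, whereas Areg was only 0.44 above RR there. As a ratio of their FPKM, Ereg stood at 2.83 times Areg in C, 2.04 in R and 2.52 in 3KR, and at 0.26 to 0.648 times Areg in the other 6 libraries. The neighbours therefore did not keep a fixed proportion. An antisense gene, Gm19610, overlaps Ereg by 152 bases and was at 0.35 to 1.78 FPKM. The kit marks strand, but use of the strand in the authors' counting was not given in the sources used here.

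Hbegf, the heparin-binding ligand on chromosome 18 (ENSMUSG00000024486), had the least ordered pattern of the 3 ligands. Its level was 4.42 FPKM in R, 7.14 in 1K, 17.4 in 2K and 10.2 in 3K. In the day 33 libraries it was 11.6 in RR, 3.12 in 1KR, 3.04 in 2KR and 8.0 in 3KR, and it was 9.05 in C. It was the only one of the 8 genes at least 2-fold lower than RR in 2KR, with a log2 difference of -1.78, and in 1KR the difference was -1.74. The background there was 3.67% of genes lower and 2.67% higher in 2KR, and 3.51% lower and 2.47% higher in 1KR.

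Some other genes of the EGF receptor pathway stood higher in the same libraries, and others stood lower. Of 17 measured receptors, sheddases and feedback genes, 10 exceeded R at least 2-fold in 2K and 0 were lower (median 1.48), and 7 were higher and 1 lower in 3K (median 0.85). In 1K 4 of 16 were higher and 0 lower. Over all genes, 14.7% were that much higher and 14.1% lower in 2K, 11.6% and 13.4% in 3K, and 7.17% and 8.63% in 1K. The largest differences in 2K were those of Errfi1, a feedback inhibitor of the receptor (3.66), the early response genes Ier3 (2.75) and Egr1 (2.04), and the receptor Egfr itself (2.23). Egfr was at 9.1 FPKM in R, 4.42 in 1K, 44.4 in 2K and 16.8 in 3K, and liver, whose marker RNA was high in 2K, is a tissue rich in this receptor. Errfi1 was at 28.7 FPKM in R, 82.2 in 1K, 367 in 2K and 135 in 3K. The receptors Erbb2 (-0.74 in 2K and -1.08 in 3K) and Erbb3 (-0.06 and -0.24) were lower than in R. So were the sheddases Adam17 (-0.3 and -0.41) and Adam10 (-0.64 and -0.66). The part of other organs' RNA in these levels was not tested. Among 7 other listed ligands of the family, the neuregulin Nrg1 stood above R by 1.04 in 1K, 2.33 in 2K and 2.74 in 3K. Nrg1 also stood above RR by 2.85 in 3KR. Nrg4 was higher in 2K (2.00) and lower in 3KR than in RR (-2.19). Of the 6 of these ligands that were measured, 4 were above R in 2K (median 0.69) and 2 in 3K (median -0.31).

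Ly6d showed the widest range of the 8 genes. It lies on chromosome 15 at 74762056 to 74763620, minus strand, with 1 transcript of 744 bases (ENSMUSG00000034634). Its level was 0.817 FPKM in R, 5.83 in 1K, 17.6 in 2K and 68.3 in 3K. By day 33 it was 1.18 in RR, 2.0 in 1KR, 1.77 in 2KR and 6.6 in 3KR, and it was 0.7 in C. The highest library was 97.6 times the lowest, and the 3 deficient libraries of day 28 and 3KR were ordered 3K, 2K, 3KR and 1K, with the other 5 at or under 2.0 FPKM. Against R the log2 difference was 2.26 in 1K, 3.78 in 2K and 5.71 in 3K. The estimated fragments were 13.6 in C and 17.3 in R, so the low end rests on few reads, against 1338 in 3K. Per 1000 FPKM of the epithelial marker Epcam, Ly6d was at 0.961 in C, 1.43 in R, 12.1 in 1K, 86.1 in 2K and 226 in 3K, in the same order as the FPKM itself.

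Ly6d is also known from stratified epithelia, such as that of the forestomach, and from early B cells. The 13 squamous epithelial markers summed to 0.769 to 11.1 FPKM, highest in 2K, and at most 3 of them reached 1 FPKM in any library. In 3K, where Ly6d was highest, they summed to 3.99 FPKM. The 8 B cell markers summed to 6.47 FPKM in 1K, 10.6 in 2K and 32.7 in 3K, and to 29.9 in R. Gastric markers summed to 1.76 FPKM in R, 1.77 in 1K, 18019 in 2K and 58.9 in 3K. Acinar markers summed to 4.85 FPKM in R, 5.87 in 1K, 37795 in 2K and 47584 in 3K. The part of other tissues and cells in the level of Ly6d was not tested.

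Ly6a, the marker known as Sca-1, followed another order. It lies on the same chromosome at 74994877 to 74998031, minus strand (ENSMUSG00000075602). Its level was 11.6 FPKM in R, 7.61 in 1K, 12.7 in 2K and 35.1 in 3K. The day 33 levels were 23.6 in RR, 17.8 in 1KR, 24.3 in 2KR and 34.7 in 3KR, and it was 10.7 in C. All 4 day 33 libraries were thus above C, R, 1K and 2K, and 3K and 3KR were level. RR stood 1.11 above C and 1.00 above R on the log2 scale, and the second of these became 0.90 with median-of-ratios scaling. Ly6a is known in endothelial and some T cells as well as in epithelium, and the endothelial markers summed to 127 FPKM in 3K and to 34.8 to 76.2 elsewhere. T cell markers summed to 36.0 FPKM in 3K, 59.3 in 3KR and 66.9 in 1KR, and to 18.1 to 46.9 in the other 6. The part of these cells in Ly6a was not tested.

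Both genes belong to a run of 17 Ly6 family genes that spans 885 kb of chromosome 15, from 74714839 to 75599481, of which 13 reached 1 FPKM in some library. Several neighbours of Ly6d shared its low level on the normal diet and its higher level in the deficient libraries of day 28. Gml was at 0.544 FPKM in R, 26.6 in 1K, 24.8 in 2K and 53.1 in 3K. Gml2 was at 0.341 FPKM in R, 25.9 in 1K, 18.2 in 2K and 41.0 in 3K. In the 5 other libraries both were at or under 2.62 FPKM. Psca, a stem cell antigen known from stomach and bladder, was listed at 0 in R and was at 10.9 FPKM in 1K, 491 in 2K, 14.1 in 3K and 1.84 in 3KR. Psca was thus highest in the library with the most gastric RNA, and the part of that RNA in its level was not tested. Other genes of the run kept a separate order: Ly6m was lowest in 2K, at 16.9 FPKM against 62.7 to 141 elsewhere, and Ly6e was highest in 2KR, at 138 FPKM.

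**Figure D2:**
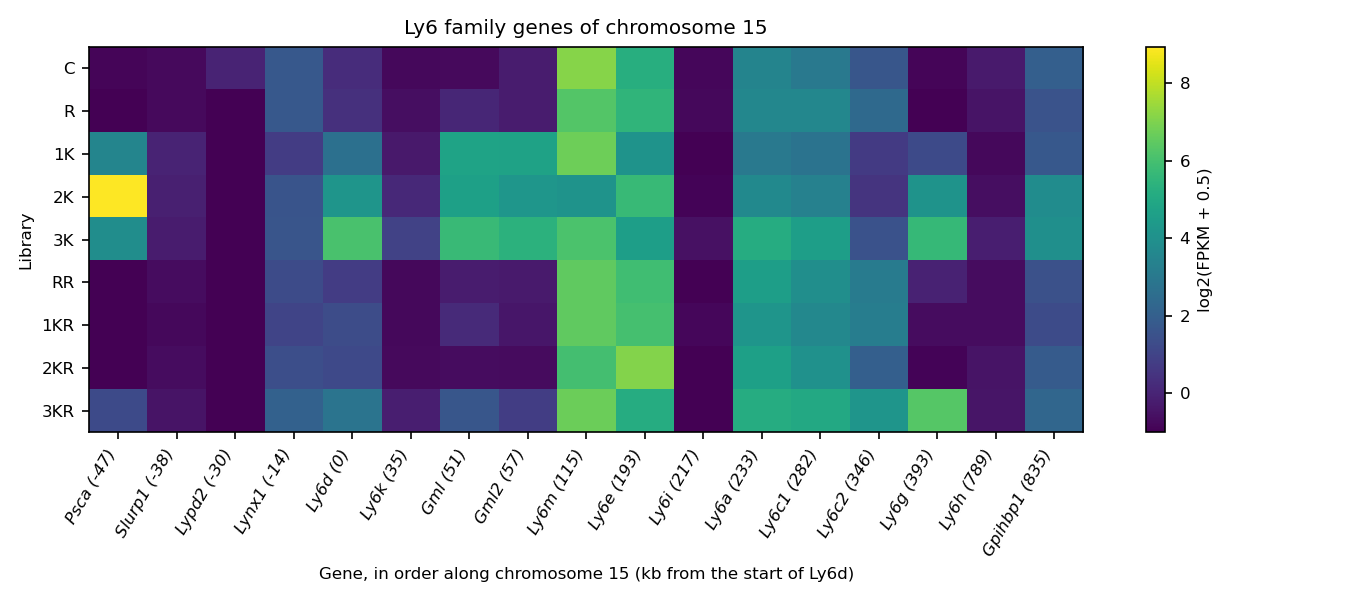
Levels of 17 Ly6 family genes of chromosome 15 as log2(FPKM + 0.5), in colour, with libraries in rows and genes in columns in chromosomal order (distance from the start of Ly6d in kb). Ly6d, Gml, Gml2 and Psca are each brighter in 1K, 2K and 3K than in R and C, whereas Ly6a and Ly6c1 are present in all libraries.

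Ly6g, the antigen by which neutrophils are commonly stained, was at 1.87 FPKM in 1K, 16.7 in 2K, 50.2 in 3K and 78.7 in 3KR, and at most 0.467 FPKM elsewhere. The other neutrophil markers did not keep a fixed proportion to it. The alarmin S100a8 stood at 16.2 times the level of Ly6g in 3KR, and at 1.46 times in 3K, 3.55 in 2K and 1.54 in 1K. The neutrophil receptor Cxcr2 was at 15.2 FPKM in 3KR and 1.26 in 3K. Ly6a, Ly6c1, Ly6c2, Ly6i, Gml and Gml2 have close copies within the run, so reads may be split between them and their separate values are uncertain.

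Clusterin (Clu), a secreted chaperone that marks the revival stem cells of the injured crypt, gave the highest level of the 8 genes. It lies on chromosome 14 at 65968483 to 65981547, plus strand (ENSMUSG00000022037). Its level was 55.2 FPKM in R, 94.4 in 1K, 656 in 2K and 231 in 3K. At day 33 it was 25.1 in RR, 19.5 in 1KR, 24.4 in 2KR and 50.6 in 3KR, and it was 27.0 in C. All 4 day 28 libraries were above all others, and 2K stood at 2.84 times the level of 3K. Clu was the only one of the 8 genes at least 2-fold higher in R than in C (1.02), and 0 were lower. The background was 4.43% higher and 3.22% lower. In this comparison 7 of the 8 reached 1 FPKM in either library. Liver is also a strong source of Clu, and the hepatocyte markers summed to 42723 FPKM in 2K. In 3K they summed to 347 FPKM, against 358 in R. Clu differed between 3K and R by 2.06 on the log2 scale, and acinar RNA was high in 3K. The part of liver, stomach and pancreas RNA in the level of Clu was not tested.

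Anxa1, a phospholipid-binding protein that restrains inflammation and is abundant in neutrophils as well as in repairing epithelium, was highest in 3KR. The gene lies on chromosome 19 at 20373428 to 20390944, minus strand (ENSMUSG00000024659). Its level was 21.4 FPKM in R, 5.75 in 1K, 49.0 in 2K and 44.5 in 3K. On day 33 the level was 13.2 in RR, 12.1 in 1KR, 14.3 in 2KR and 76.9 in 3KR, and it was 14.0 in C. The methionine-deficient library 1K was the lowest, with a log2 difference of -1.81 from R, and 3KR was 2.50 above RR. In 1K fibroblast markers summed to 260 FPKM, against 415 to 866 elsewhere, and macrophage markers to 153 FPKM, against 180 to 457. In 3KR the neutrophil markers were highest, as given above. Whether these cells account for the Anxa1 levels was not tested. The long noncoding gene 1500015L24Rik lies on the other strand across all of Anxa1, and was at most at 0.378 FPKM.

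A stretch of 30 bases before the RefSeq start of Anxa1 is shown because it holds the TEAD motif. That start, 20390671, lies inside the GENCODE gene given above, which begins farther upstream, so the stretch is within that gene. It is chr19:20390890-20390919, minus strand, 5′ to 3′, with CATTCC in capitals at -236 to -231 from the RefSeq start.
Anxa1: actgcactgaacCATTCCtgtgaggaataa
The Anxa1 window also held TATAAA at -32 to -27, and neither TGANTCA nor TGACGTCA was found in it.

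Mesothelin (Msln) is a surface protein of the mesothelium that covers the gut, and is also reported in regenerating epithelium. The gene lies on chromosome 17 at 25748613 to 25754378, minus strand (ENSMUSG00000063011). Its level was 4.32 FPKM in R, 1.43 in 1K, 11 in 2K and 7.31 in 3K. In the day 33 libraries it was 4.08 in RR, 1.57 in 1KR, 3.48 in 2KR and 2.15 in 3KR, and it was 3.57 in C. The lowest libraries were 1K and 1KR, of the diet that lacked methionine alone up to day 28. Their log2 differences were -1.32 from R and -1.15 from RR, in that order. The other mesothelial markers were also low in them: against R, 5 of 9 were at least 2-fold lower in 1K and 0 higher (median -1.13), and against RR 6 of 9 were lower in 1KR and 0 higher (median -1.31). Over all genes, 8.63% were that much lower and 7.17% higher in 1K, and 3.51% and 2.47% in 1KR. Wt1, a transcription factor of mesothelium, was at 0.717 FPKM in 1K and 0.254 in 1KR, against 1.53 to 6.86 elsewhere. Msln stood at 4.04 times the mesothelial marker Upk3b in 2K and 2.2 times in 3K, and at 0.855 to 1.33 times in the other 7 libraries. That of 3K depends on the marker. Wt1 was at 4.49 FPKM in R, 4.18 in 2K and 6.86 in 3K, so it was close to Msln in R and 3K. Not all mesothelial markers were lower than in R in 3K, where Msln differed from R by 0.70: Nkain4 differed by 0.80, Wt1 by 0.56 and Upk3b by -0.54. Without Krt19, which epithelium also makes, the mesothelial markers summed to 31.7 FPKM in R, 21.7 in 2K and 31.8 in 3K.

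**Figure D3:**
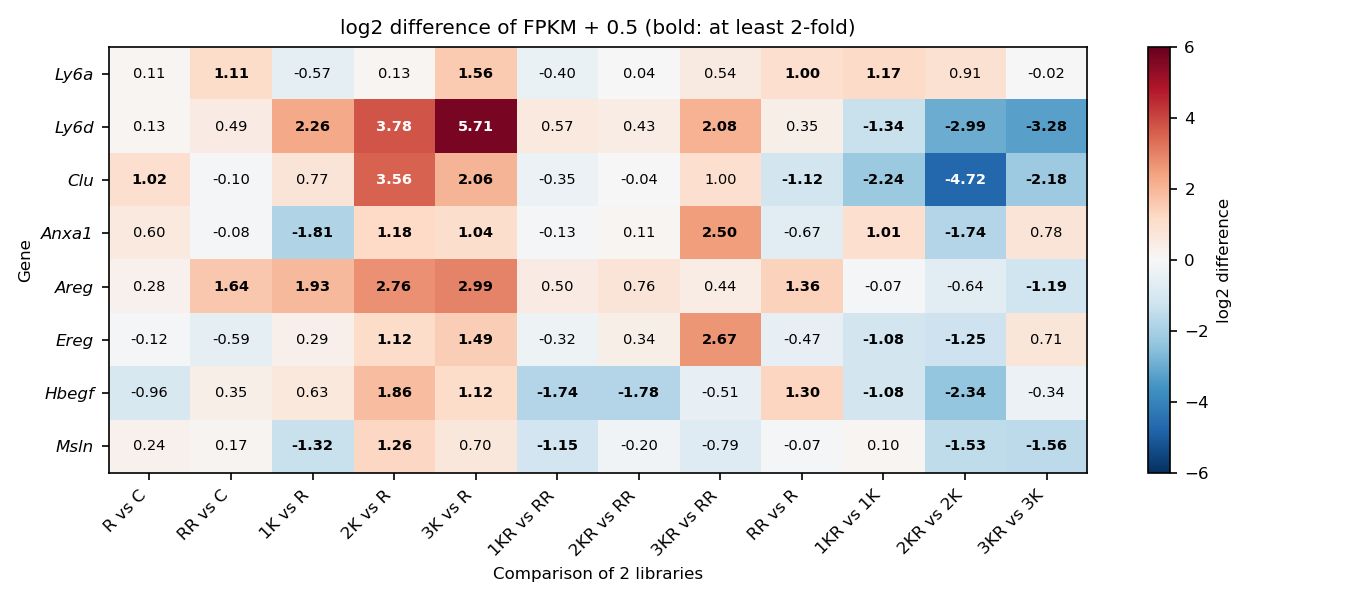
Differences of log2(FPKM + 0.5) of the 8 genes in 12 comparisons of 2 libraries each, with the first library's excess in red and its deficit in blue, and bold values at least 2-fold apart. Red fills the columns of 2K and 3K against R, and blue fills 2KR against 2K for all genes but Ly6a.

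A factorial fit was the only test the design allowed. It used the 8 DSS libraries, with day, methionine and tryptophan plus niacin as factors, and took its error from the interaction of the 2 diet factors, which was assumed to be 0. With limma and Benjamini-Hochberg adjustment over 17577 genes, 0 of the 8 repair genes passed an adjusted p of 0.05 for any factor. For tryptophan and niacin deficiency at day 28, 33 genes were called over the whole table (0.188%) and 3380 had an unadjusted p under 0.05. The 33 became 67 without the mean-variance trend and 0 when any 1 of the 8 libraries was left out. All 8 coefficients were positive there, and 5 of 8 had an unadjusted p under 0.05. The largest was that of Ly6d, 3.61 ± 0.35 (SE, log2 scale), with a limma adjusted p of 0.096. In order of size, Clu followed at 2.42 ± 0.67 (adjusted p 0.19), then Anxa1 at 2.01 ± 0.75 (0.26), Areg at 1.91 ± 0.50 (0.18) and Msln at 1.64 ± 0.33 (0.15). For Ly6a, Ereg and Hbegf the coefficients were 1.13 ± 0.56, 1.16 ± 0.67 and 1.18 ± 0.82, with limma adjusted p-values of 0.35 to 0.47. Each of these coefficients compares 2K and 3K with R and 1K, so the acinar RNA of 2K and 3K is on the same side of it. Of the genes in the other lists, only acinar genes were called with all 8 libraries, and none without any 1 of them.

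The coefficient averages the effect of the diet with and without methionine, and the genes differed in how alike those were. Ly6d was 3.78 higher in 2K than in R and 3.44 higher in 3K than in 1K, and Ereg was 1.12 and 1.20 higher. Clu was 3.56 and 1.29 higher, Areg 2.76 and 1.07, and Hbegf 1.86 and 0.49. In the opposite order, Anxa1 was 1.18 and 2.85 higher, Msln 1.26 and 2.02, and Ly6a 0.13 and 2.13. The difference between these pairs is only a part of the error of the fit and was not tested. The error also takes in the same difference at day 33 and, through limma, the spread of other genes. For Ereg the tryptophan and niacin pair of day 33 was 0.34 (without methionine deficiency) and 3.0 (with it), and the SE was 0.67. The day 28 values above are also the coefficients left when a library of day 28 is dropped, so only Ly6d and Ereg kept nearly the same value there.

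For the remaining factors limma called 0.0% of all genes. Methionine deficiency at day 28 had a coefficient of 2.10 ± 0.35 for Ly6d and -0.94 ± 0.33 for Msln, the 2 genes of 8 with an unadjusted p under 0.05 (563 genes over the table), each with a limma adjusted p of 1.0. At day 33, after refeeding, 1 of 8 had an unadjusted p under 0.05 for each factor, which was Ly6d in both, at 1.11 ± 0.35 for methionine and 0.97 ± 0.35 for tryptophan and niacin. Among all genes, 218 and 389 did so, and the limma adjusted p of Ly6d was 1.0 and 0.98. The change of the tryptophan and niacin coefficient from day 28 to day 33 was tested as an interaction. It was -2.64 ± 0.50 for Ly6d, with an adjusted p of 0.49, and negative for all genes but Ereg. Among all genes 26 were called (0.148%), none of the 8 repair genes among them, and 0 without any 1 of the libraries. Of the 8 genes, 2 had an unadjusted limma p under 0.05, against 1587 of 17577 genes over the table. The day itself, on the normal diet, gave 0 of 8, also unadjusted, against 561 genes.

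**Figure D4:**
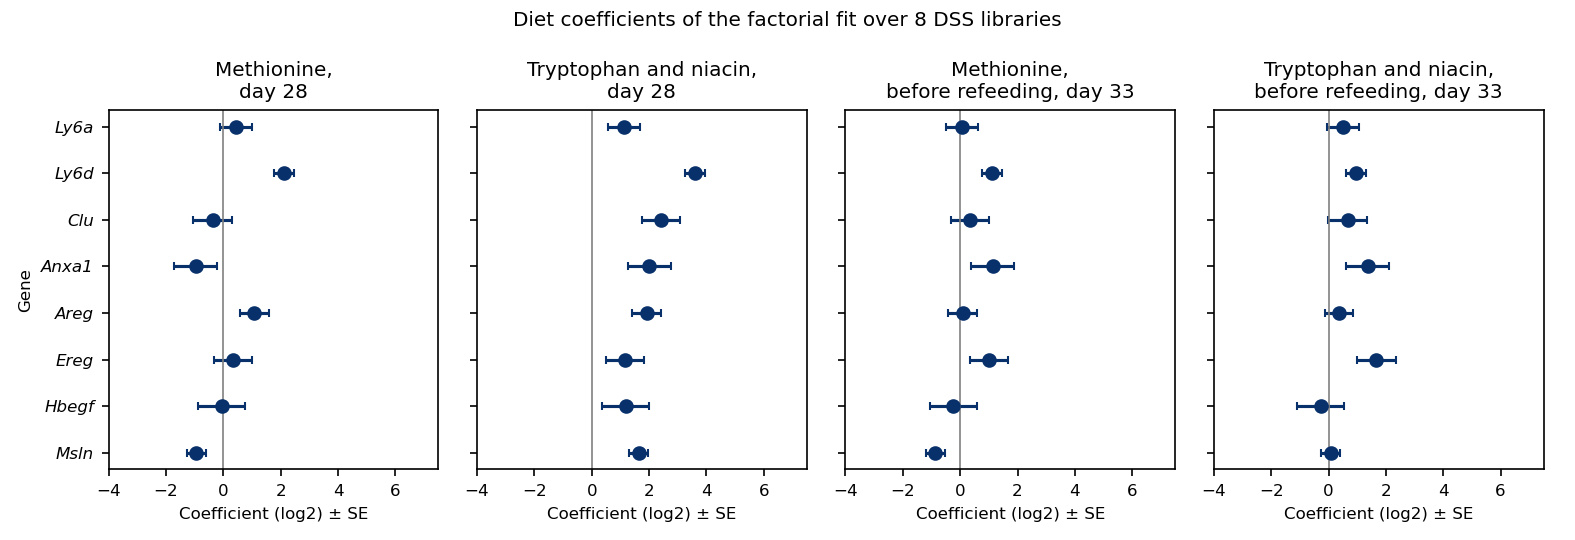
Diet coefficients of the limma fit over the 8 DSS libraries, on the log2 scale, for each repair gene, with bars of 1 SE. For tryptophan and niacin at day 28 all 8 points lie to the right of 0, and Ly6d, at 3.61, lies farthest.

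Other genes of the fetal-like and injury response were described with a list of 26 that holds none of the 8. In 2K 14 of 25 measured genes were at least 2-fold higher than in R and 1 lower (median 1.04), and in 3K 13 of 25 were higher and 0 lower (median 1.08). In 1K 4 of 23 were higher and 5 lower. Over all genes, 14.7% were that much higher and 14.1% lower in 2K, 11.6% and 13.4% in 3K, and 7.17% and 8.63% in 1K. The largest differences in 2K were those of Anxa10 (7.80) and the mucin Muc1 (6.97), both known from gastric epithelium, where gastric RNA was high. Muc1 was at 0.263 FPKM in R, 0.548 in 1K, 95.3 in 2K and 19.0 in 3K. Plaur, the urokinase receptor, was higher by 2.28 in 2K and 2.60 in 3K, and its difference in 1K was 0.67. Neutrophils and macrophages also express Plaur. Neutrophil markers summed to 24.1 FPKM in R, 18.7 in 1K, 155 in 2K and 229 in 3K. Macrophage markers summed to 457 FPKM in R, 153 in 1K, 329 in 2K and 369 in 3K. The part of stomach RNA and of these cells in the list was not tested.

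Targets of YAP and TEAD were also listed. Of 18 measured, 3 were at least 2-fold higher and 1 lower in 2K than in R (median 0.36), and 4 were higher and 0 lower in 3K (median 0.55). The 4 were Ccn2 (1.80), Gadd45b (1.71), Ajuba (1.38) and Axl (1.21). Over all genes, 14.7% were that much higher and 14.1% lower in 2K, and 11.6% and 13.4% in 3K. The count of higher targets in 2K was thus near the share of all genes. The canonical target Ccn1 differed by 0.38 in 2K and 0.50 in 3K. Of the Hippo pathway's own components, 0 of 14 were higher and 1 lower in 2K, and 2 of 15 higher and 0 lower in 3K. Yap1 itself differed by -0.04 and -0.09.

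Crypt base stem cell genes stood on the other side. Of 16 measured, 10 were at least 2-fold lower in 2K than in R and 1 higher, and in 3K 9 of 15 were lower and 1 higher, with a median of -1.06 in each. In 1K 5 of 15 were lower and 0 higher (median -0.84). Over all genes, 14.1% were that much lower and 14.7% higher in 2K, 13.4% and 11.6% in 3K, and 8.63% and 7.17% in 1K. The median of the 9 pan-epithelial markers was also below 0, at -0.98 in 2K, -0.69 in 3K and -0.07 in 1K. The log2 difference in 3K was -7.24 for Olfm4, -2.93 for the Wnt target Axin2, -2.77 for the stem cell receptor Lgr5 and -2.04 for Ascl2. Olfm4 in mice is a marker of small intestinal crypts. It was at 214 FPKM in R, 3.51 in 1K, 1.03 in 2K and 0.916 in 3K. On day 33 it was at 200 FPKM in RR, 202 in 1KR, 274 in 2KR and 35.5 in 3KR. Region moved with these libraries as given above, and its part in the level of Olfm4 was not tested. At day 33, 0 of 15 were 2-fold apart from RR in 1KR and in 2KR. In 3KR 1 was higher (Prom1 2.67) and 2 were lower (Olfm4 -2.48 and Smoc2 -1.05). Over all genes, 2.47% were higher and 3.51% lower in 1KR, 2.67% and 3.67% in 2KR, and 11.4% and 9.73% in 3KR.

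**Figure D5:**
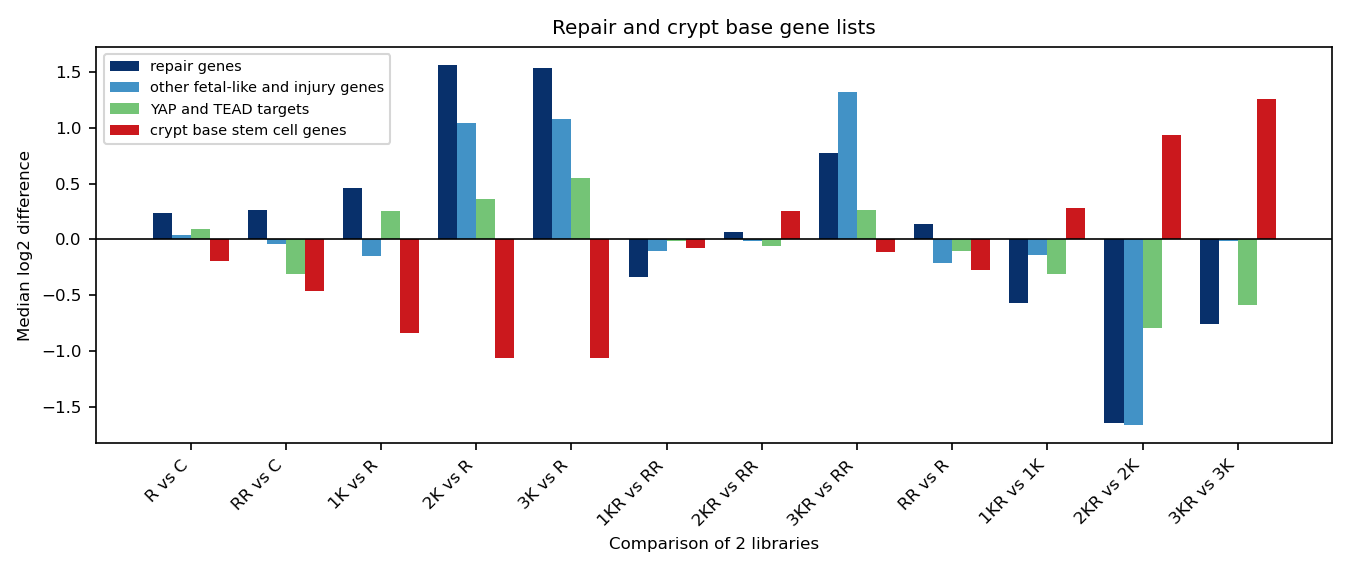
Median difference of log2(FPKM + 0.5) in 12 comparisons of 2 libraries for the 8 repair genes, the 26 other fetal-like and injury genes, the YAP and TEAD targets and the crypt base genes, over genes with 1 FPKM in either library. Repair genes stand above 0 and crypt base genes below 0 in 2K and 3K against R, and in 2KR against 2K the order is turned round.

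After the return to the normal diet, most repair genes were less than 2-fold from RR in 1KR and 2KR. Against RR, 0 of 8 were at least 2-fold higher in 1KR and in 2KR, where Hbegf, and in 1KR also Msln, were lower. Over all genes, 2.47% were higher and 3.51% lower in 1KR, and 2.67% and 3.67% in 2KR. In 3KR 3 of 8 were higher (Ereg 2.67, Anxa1 2.50 and Ly6d 2.08) and 0 lower, with 11.4% of all genes higher and 9.73% lower. Clu, at 1.00, lay just under the limit. At any size of difference, 6 of 8 were above RR in 3KR, with a median of 0.77. Areg was above RR by 0.50 in 1KR, 0.76 in 2KR and 0.44 in 3KR. Ly6d was above RR by 0.57, 0.43 and 2.08 in the same order. Of the other fetal-like and injury genes, 13 of 24 were higher and 0 lower in 3KR, led by Ly6g (6.36), Il1rn, an antagonist of interleukin 1 (4.20), Plaur (4.16) and Ptgs2, the inducible cyclooxygenase (3.88). These are genes that neutrophils and macrophages also express, and 3KR held the highest summed neutrophil markers and the highest Car1. The summed colonic markers were highest in 2K (5471 FPKM, against 1647 in 3KR), of which the acute phase gene Saa1 gave 5432 FPKM. The part of these cells was not tested.

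Each refed library was also set beside the deficient library of the same diet, which differs from it in both diet and day. In 2KR 6 of 8 were at least 2-fold lower than in 2K and 0 higher (19.0% of all genes lower, 13.5% higher), with differences of -4.72 for Clu and -2.99 for Ly6d. In 3KR 4 of 8 were lower than in 3K (Ly6d -3.28, Clu -2.18, Msln -1.56 and Areg -1.19) and 0 higher, with 11.7% of all genes lower and 13.3% higher. In 1KR 4 were lower than in 1K (Clu -2.24, Ly6d -1.34, Ereg -1.08 and Hbegf -1.08) and Anxa1 and Ly6a were higher (1.01 and 1.17), with 7.79% and 6.57% of all genes. Clu and Ly6d were thus lower in all 3 refed libraries. On the normal diet Clu was lower too at day 33 than at day 28 (-1.12), while Areg (1.36), Hbegf (1.30) and Ly6a (1.00) were higher, with 5.29% of all genes lower and 5.42% higher. Against C, RR differed only in Areg (1.64) and Ly6a (1.11), both higher, with 6.71% of all genes higher and 5.81% lower.

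The genes most like each member across the 9 libraries were sought among 13603 genes, by Pearson's r of log2(FPKM + 0.5). The libraries share composition, so r is a description. Ly6a was most like Ly6c1 (0.954), its neighbour and close copy. Ly6d was most like Prrg4 (0.98) and Dmbt1 (0.973), a secreted scavenger protein of mucosal defence at 206 FPKM in R, 548 in 1K, 3207 in 2K and 4137 in 3K. Clu was most like Stat3 (0.983), the transcription factor downstream of interleukin 6 and 22, at 118 FPKM in R, 165 in 1K, 276 in 2K and 215 in 3K. Anxa1 was most like the stromal genes Cxcl12 (0.978), Sod3 (0.977) and Pdpn (0.976), and Ereg like S100a11 (0.98), Serpinb5 (0.972) and Plaur (0.966). Areg was most like Rbm7 (0.994), which ran only from 13.0 to 23.0 FPKM. For Hbegf and Msln the highest values were those of Rai1 (0.943) and Lrrk1 (0.971).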

How the data were processed

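RNA was extracted from intestinal tissue, depleted of ribosomal RNA and made into stranded libraries, per the labels' protocols. The submitters' processing notes name HISAT2, Cuffdiff 2.2.1 and the build GRCm38, and the deposited table gives FPKM per gene, as the authors computed it, for 9 libraries. Its gene annotation was not given in the sources used here. Coordinates are from GENCODE M21, which lacked 327 of 55468 genes.

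Values were compared as log2(FPKM + 0.5) in 12 comparisons, with a floor of 1 FPKM in either library. The table holds no counts, so depth was inferred from the spacing of the lowest values among genes with 1 transcript of 1500 to 3000 bases, and no counting interval is given. The fit used limma 3.58.1 (R 4.3.3) with a mean-variance trend and 2 residual degrees of freedom over genes whose mean reached 1 FPKM. It was also run on simulated data with the fit's own spread and no interaction of the diet factors. That run could not check the assumption of no interaction. C was not in the fit. Python 3.11.15 was used for the rest.

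The 8 members, the 25 gene lists and the tests were chosen with earlier results of these data known. From each list, up to 4 genes with the largest difference in a comparison were named, and for each member up to 3 genes most alike. Some genes were named beside this rule after their values were seen (Ccn1, Yap1, Egfr in every library, Errfi1 in 4 libraries, Erbb2, Erbb3, Adam10, Adam17, Plaur in 1K, 2K and 3K, the genes of the Ly6 run, Wt1, Upk3b, Cxcr2, S100a8, Car1, Saa1, Nkain4 and Epcam). Alternatives were pseudocounts of 0.1 and 1, a floor of 5 FPKM or none, size factors (median of ratios) from 7809 genes, other forms of the fit and leaving out each library.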

Additional observations from a re-analysis of the deposited data

How the results depend on the processing

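Of 288 recomputed differences of the 8 genes between 2 libraries, 279 kept their side of the 2-fold limit, 9 crossed it and 0 turned direction past it. The counts of genes at least 2-fold apart that moved by over 1.5 times were R against C (1, and 2 with a pseudocount of 0.1, where Hbegf crossed at -1.02), 1KR against RR (2, and 1 with a pseudocount of 1 or a floor of 5 FPKM) and 1KR against 1K (6, and 3 with a pseudocount of 1). A larger pseudocount shrinks the differences of low genes. The number of repair genes called by limma was 0 for every factor under every alternative fit that was run. It ranged from 0 to 0 when each DSS library was left out in turn, but those fits called 0 of all 17577 genes for tryptophan and niacin at day 28 (33 with all libraries) and for its change to day 33 (26), so they say nothing about the stability of the repair genes. Over all alternatives, the adjusted p of Ly6d for tryptophan and niacin at day 28 ran from 0.08 to 0.43. With size factors (median of ratios), the all-gene median went from 0.03 to -0.15 in 1K against R, and from 0.03 to 0.14 in 3KR against RR. No paired analysis was possible because each condition has 1 library. With 1 library a condition, neither animal to animal spread nor technical spread can be measured, and low levels such as Ly6d in C and R rest on few fragments.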
